A study of Homo sapiens with 12 samples.

Results

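Untreated SCC25 cells were compared with untreated SCC1 and SCC6 cells, with the UMIs (unique molecular identifiers, each counted as 1 captured mRNA molecule) of all cells of a sample summed per gene. SCC25, SCC1 and SCC6 are established cell lines of head and neck squamous cell carcinoma (HNSCC). The members were the 2 SCC25 samples given PBS, the vehicle, daily for 5 days, set against 2 PBS samples of SCC1 and 2 of SCC6, so 6 of the 12 samples of the series entered. They held 4894 SCC25 cells, 2929 SCC1 cells and 5217 SCC6 cells, of 23914 cells in all. The other 6 samples, the same lines given the EGFR antibody cetuximab for 5 days, served as a separate look at the same difference between lines. All groups shared one culture medium with fetal bovine serum, and the libraries were 3′ end libraries of the 10x Chromium kit. Each line is a single model of a tumour, so a difference between lines is a difference between these cultures.

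Squamous epithelium renews itself from a basal layer that carries keratins 5 and 14 and is held together by desmosomes, and p63, encoded by TP63, is its master transcription factor. Cells that leave the basal layer change keratins, build a cornified envelope and secrete kallikreins. Under wounding, stress or malignancy they make the stress keratins 6, 16 and 17, and carcinoma cells can in addition take up mesenchymal genes such as VIM, CDH2 and FN1. Squamous carcinomas commonly depend on EGFR signalling, whose ligands include amphiregulin (AREG) and epiregulin (EREG).

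The summed samples held from 62519572 to 112170073 UMIs, and SCC25 contributed 80948957 and 112170073. Median UMIs per cell were 31948 and 40884 in SCC25, 45993 and 52119 in SCC1 and 32438 and 38692 in SCC6. Any pair of the 6 PBS samples shared 2 to 13 cell barcodes. The replicates of SCC25 lay farther apart than those of SCC1: 2030 of 17229 genes differed by more than 2-fold between the SCC25 samples, against 802 in SCC1 and 1942 in SCC6. All 16 squamous epithelial markers exceeded 10 CPM (UMIs of the gene per 1000000 UMIs of the sample, with the sample total scaled by its TMM factor) in both SCC25 samples. The summed level of fibroblast markers was 23.2 and 44.6 CPM in SCC25, against 15.4 to 15.7 in SCC1 and 1.17 to 3.38 in SCC6, and LUM supplied most of the higher value. Of 9 leukocyte markers, CD68 stood at 160 and 201 CPM in SCC25 while PTPRC, the pan-leukocyte marker, was at 0.0484 and 0 CPM. Endothelial markers summed to under 0.7 CPM in both SCC25 samples.

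Of 17229 genes tested, SCC25 was higher than both other lines in 1981 (11.5%) and lower than both in 1018 (5.91%). A gene was called when edgeR's quasi-likelihood test gave a Benjamini-Hochberg adjusted p under 0.05 against SCC1 and against SCC6, in the same direction. The SCC25 samples are shared by these comparisons, which are therefore not independent of each other. Taken singly, SCC25 was higher than SCC1 in 3904 genes (22.7%) and lower in 2477 (14.4%). Against SCC6 it was higher in 3638 genes (21.1%) and lower in 2807 (16.3%). The median log2 fold change over all genes was 0.06 against SCC1 and 0.01 against SCC6. The lower count against both lines was 532 without SCC1 replicate 1 and 519 without SCC1 replicate 2. Without these samples the counts against SCC1 were 2455 and 2415 higher and 1188 and 1237 lower, and without SCC6 replicate 1 the lower count against SCC6 was 1815.

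The excess of higher calls lay among genes with a low mean over the 6 PBS samples. A gene could enter the test through a single line, while a lower call needed presence in both other lines. The shares by level therefore depend in part on the filter and the call rule. Among 4521 genes with a mean under 1 CPM, 19.3% were called higher and 3.38% lower. Among 5932 genes from 10 to 100 CPM the shares were 6.47% and 6.81%, and among 1451 genes at 100 CPM or more they were 6.27% and 3.1%. Called genes with at least a 2-fold difference from both lines numbered 1787 higher and 736 lower, and 177 and 61 of these reached 50 CPM where they were high. Of the called genes, 97 had 0 UMIs in all 4 samples of SCC1 and SCC6. The fullest of these, chosen after its values were seen, was HORMAD1, a meiotic chromosome axis gene of the cancer-testis type, at 14.1 and 13.2 CPM in SCC25, at least 794-fold higher than SCC1 and at least 823-fold higher than SCC6 against a floor of 3 UMIs over the group. In the opposite direction, 24 called genes had 0 UMIs in both SCC25 samples, and such a gene had to be present in both other lines.

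**Figure D1:**
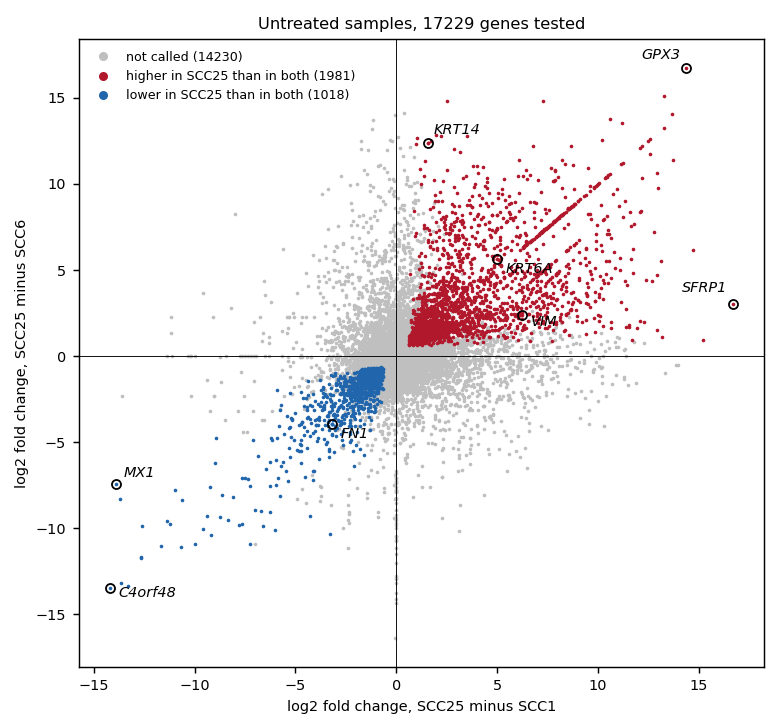
Log2 fold change of SCC25 over SCC1 (horizontal axis) and over SCC6 (vertical axis) for the 17229 genes tested, as points coloured by call: 1981 higher than both lines, 1018 lower than both and 14230 not called. Genes absent from both other lines line up on the diagonal at the upper right, KRT14 lies far up but close to the vertical axis and MX1 and C4orf48 lie at the lower left.

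Genes with the largest increase over both lines were led by GPX3, CALML3 and G0S2, which were close to absent elsewhere. GPX3 encodes the secreted glutathione peroxidase and was at 155 and 146 CPM in SCC25, 0.0133 and 0 in SCC1 and 0 and 0 in SCC6. Its 28106 UMIs in SCC25 stood against 1 UMI in SCC1, a ratio of 26300-fold (95% counting interval 4720 to 1040000) to SCC1, and 0 in SCC6, at least 9090-fold higher. CALML3, a calmodulin-like protein of keratinocytes, was at 313 and 311 CPM in SCC25, 0.0133 and 0.03 in SCC1 and 0.023 and 0.0106 in SCC6. The SCC25 samples were alike for both genes and none of the 4 other samples came near them. G0S2, an inhibitor of adipose triglyceride lipase, was at 341 and 149 CPM in SCC25, 0.0399 and 0.00998 in SCC1 and 0 and 0.0106 in SCC6, and the lower SCC25 sample was still far above every other sample. GPX3 lies on chromosome 5 (chr5:151020591-151028988, GRCh38).

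Start-site sequences of GPX3 and CALML3 are shown with those of CXCL8 and AREG, leading genes of the opposite direction described further on. The sequences let promoters of genes higher and lower in SCC25 be read side by side. They are the 150 bases before the annotated start, 5′ to 3′ on the plus strand, from RefSeq GRCh38.p14, at chr5:151020441-151020590, chr10:5524811-5524960, chr4:73740419-73740568 and chr4:74444986-74445135. Capitals mark the AP-1 site TGANTCA and the TATA box TATAAA where these letters occur.
GPX3: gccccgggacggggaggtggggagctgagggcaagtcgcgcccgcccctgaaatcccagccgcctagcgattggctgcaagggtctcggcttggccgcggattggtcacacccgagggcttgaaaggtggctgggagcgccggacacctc
CALML3: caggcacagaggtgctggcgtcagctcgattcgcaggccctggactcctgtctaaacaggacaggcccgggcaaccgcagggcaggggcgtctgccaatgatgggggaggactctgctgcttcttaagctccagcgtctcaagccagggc
CXCL8: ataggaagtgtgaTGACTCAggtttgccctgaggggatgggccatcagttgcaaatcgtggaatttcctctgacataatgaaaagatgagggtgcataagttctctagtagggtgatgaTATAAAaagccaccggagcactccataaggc
AREG: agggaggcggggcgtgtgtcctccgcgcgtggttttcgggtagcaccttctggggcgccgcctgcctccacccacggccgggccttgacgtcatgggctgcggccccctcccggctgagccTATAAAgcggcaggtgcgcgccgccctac

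Neither promoter of the higher pair held any of the motifs searched, on either strand: TFAP2 (GCCNNNGGC), AP-1 (TGANTCA), the antioxidant response element (TGACNNNGC) and the TATA box (TATAAA). The promoters shown do not stand for their directions. In the 250 bases before the start, the leading higher genes SPON2, SELENOP, PTGS1 and UCHL1 held the TATA letters. Among the matched leading lower genes only CXCL8 and AREG held them. The GPX3 stretch was rich in CpG, with 13 CpG sites and 70% G and C, and the CALML3 stretch held 7 CpG sites. Of the lower pair, the AREG stretch held 17 CpG sites and 72.7% G and C. The CXCL8 stretch held 2 CpG sites and 46% G and C. Over the 250 bases before the start, the TFAP2 letters were in 20.8% of the 125 matched promoters of genes called higher at 50 CPM or more, in 30% of 50 called lower and in 27.1% of the 11808 tested genes matched. For AP-1 the shares were 4%, 6% and 4.6%, for the antioxidant response element 16.8%, 18% and 12%, and for TATA 10.4%, 4% and 6.05%. Over all 27305 promoters of the table they were 19.7% for TFAP2, 6.6% for AP-1, 11% for the antioxidant response element and 11.1% for TATA. These shares describe letters in windows and were not tested.

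A second set of leading genes had measurable levels in the other lines. LY6D, a surface protein of squamous cells, was at 779 and 1886 CPM in SCC25, 18.6 and 23.1 in SCC1 and 9.26 and 5.47 in SCC6. Both SCC25 samples were far above the rest, and the log2 fold change was 6.0 ± 0.54 against SCC1 (edgeR adjusted p = 0.00025) and 7.50 ± 0.57 against SCC6 (edgeR adjusted p = 0.00013). PTGS1, which encodes the constitutive prostaglandin synthase COX-1, was at 135 and 235 CPM in SCC25, 2.7 and 4.42 in SCC1 and 0.379 and 0.38 in SCC6, and its fold change was 5.70 ± 0.42 against SCC1 (edgeR adjusted p = 0.00012) and 8.92 ± 0.49 against SCC6 (edgeR adjusted p = 4.6e-05). UCHL1, a neuronal-type deubiquitinase, was at 276 and 442 CPM in SCC25, 1.65 and 1.77 in SCC1 and 17.3 and 21 in SCC6, so SCC1 lay below SCC6 and both lay far below SCC25. Its log2 fold change was 7.71 ± 0.37 against SCC1 (edgeR adjusted p = 4.7e-05) and 4.23 ± 0.31 against SCC6 (edgeR adjusted p = 0.00012).

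Others of the leading 20 serve transport, metabolism and stress handling. SLC38A5 and SLC7A8 carry amino acids, SELENOP carries selenium, FBP1 is the gluconeogenic fructose bisphosphatase, CRYAB is a small heat shock protein and MAP1LC3A an LC3 protein of autophagosomes. SLC38A5 was at 68.7 and 117 CPM in SCC25, 0.306 and 0.319 in SCC1 and 0.0919 and 0.116 in SCC6. SELENOP was at 57.7 and 145 CPM in SCC25, 0.93 and 0.739 in SCC1 and 0.218 and 0.201 in SCC6, and CRYAB at 78.6 and 129 CPM in SCC25, 1.97 and 1.93 in SCC1 and 0.184 and 0.591 in SCC6. All of these samples of SCC25 lay above all samples of the other lines. FBP1 showed a wide gap between the SCC25 samples, at 18.2 and 99.2 CPM in SCC25, 0.0664 and 0.0799 in SCC1 and 0.0574 and 0.0633 in SCC6. The remaining members were NEFL, SPON2, ACKR3, FAM71E1, PALMD, CLEC2B, KRT6A and MMP1, and in all 20 genes both SCC25 samples exceeded all 4 others.

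The collagenase MMP1 was the least stable of these. It was at 39.3 and 249.7 CPM in SCC25, 0.0133 and 0.389 in SCC1 and 6.94 and 15.5 in SCC6, with a fold change of 9.39 ± 1.39 against SCC1 (edgeR adjusted p = 0.002) and 3.69 ± 1.04 against SCC6 (edgeR adjusted p = 0.028). Its call was lost with the DESeq2 test (adjusted p = 0.063), without SCC25 replicate 2 (adjusted p = 0.13), without SCC6 replicate 1 (adjusted p = 0.15) and without SCC6 replicate 2 (adjusted p = 0.079), where the adjusted p is the larger of the pair, as for all calls described as lost. The calls of the other 19 held under all 15 alternatives.

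**Figure D2:**
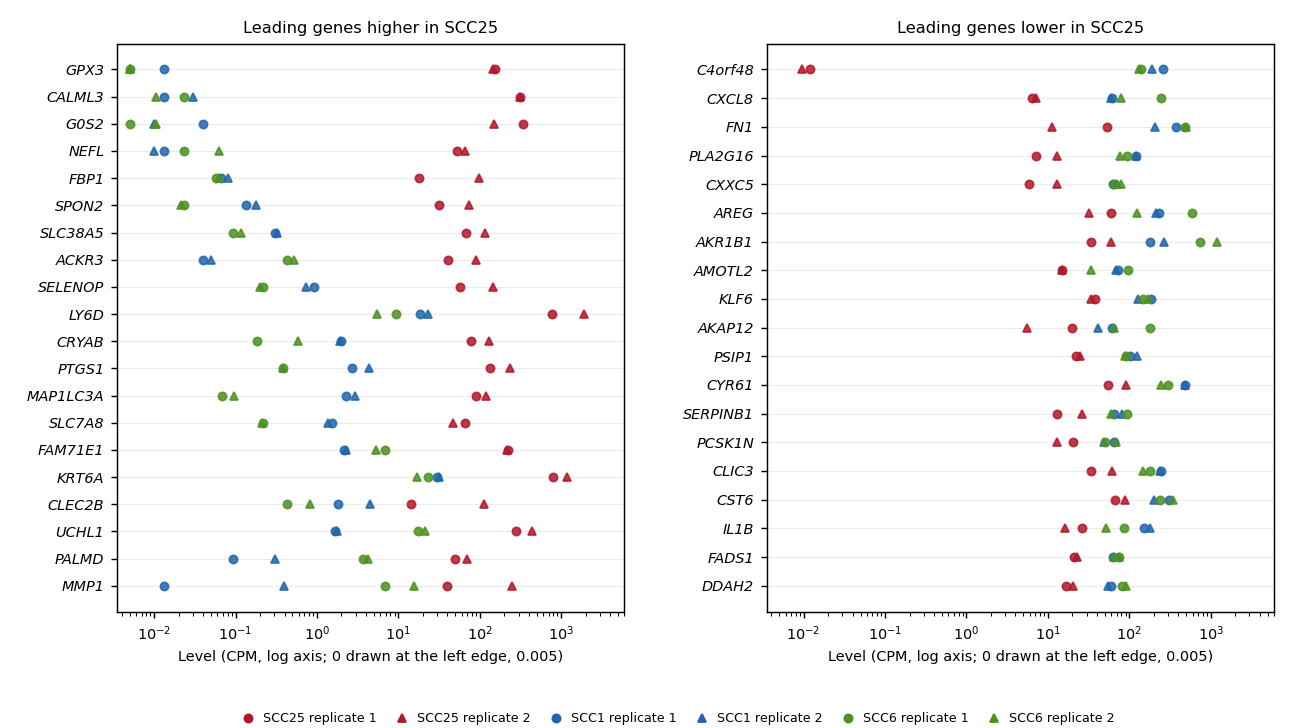
Level in CPM (log axis) of leading genes in each of the 6 PBS samples, with 1 point per sample coloured by line and values of 0 drawn at 0.005 CPM. GPX3 stands at 155 and 146 CPM in SCC25 and at 0 to 0.0133 CPM elsewhere, and C4orf48 shows the opposite arrangement.

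The leading genes in the lower direction were headed by C4orf48, a small secreted-peptide gene, which was nearly silent in SCC25. It was at 0.0121 and 0.00955 CPM in SCC25, 256 and 192 in SCC1 and 140.4 and 132 in SCC6, and 2 UMIs in SCC25 stood against 38515 in SCC1 and 24746 in SCC6. The ratio was 20600-fold (95% counting interval 5690 to 170000) to SCC1 and 12800-fold (95% counting interval 3530 to 105000) to SCC6. Of 4 genes within 300 kb of it with 10 CPM or more, 2 were also called lower, NSD2 and NELFA. FN1, the matrix glycoprotein fibronectin, was at 53.2 and 11.2 CPM in SCC25, 371 and 207 in SCC1 and 487 and 501 in SCC6. Both SCC25 samples lay below all others although they were far apart, and the fold change was -3.17 ± 0.68 against SCC1 (edgeR adjusted p = 0.0092) and -3.94 ± 0.70 against SCC6 (edgeR adjusted p = 0.0044).

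Inflammatory and growth-associated secreted factors were part of the lower set. CXCL8, the neutrophil chemokine interleukin 8, was at 6.33 and 7.15 CPM in SCC25, 61.4 and 59.8 in SCC1 and 249 and 78.6 in SCC6, with a fold change of -3.17 ± 0.51 against SCC1 (edgeR adjusted p = 0.0028) and -4.60 ± 0.54 against SCC6 (edgeR adjusted p = 0.00077). IL1B, the cytokine interleukin 1 beta, was at 26.1 and 16.5 CPM in SCC25, 154 and 180.4 in SCC1 and 85.1 and 51.8 in SCC6. AREG, an EGFR ligand, was at 59.8 and 31.7 CPM in SCC25, 231 and 211 in SCC1 and 594 and 125 in SCC6. For all 3 genes both SCC25 samples were below every other sample, and for CXCL8 and AREG the SCC6 replicates were far apart. The fold change of AREG was -2.27 ± 0.66 against SCC1 (edgeR adjusted p = 0.031) and -2.97 ± 0.68 against SCC6 (edgeR adjusted p = 0.012), and its call was lost without SCC1 replicate 1 (adjusted p = 0.06) and without SCC25 replicate 2 (adjusted p = 0.12). The call of CXCL8 was lost with all 12 samples in 1 fit (adjusted p = 0.063). IL1B had a fold change of -2.97 ± 0.35 against SCC1 (edgeR adjusted p = 0.00077) and -1.68 ± 0.33 against SCC6 (edgeR adjusted p = 0.007).

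Immediate early and YAP-associated genes were also in this set. KLF6, a stress-induced zinc finger factor, was at 37.9 and 34.1 CPM in SCC25, 185 and 129 in SCC1 and 146 and 171 in SCC6, with a fold change of -2.13 ± 0.26 against SCC1 (edgeR adjusted p = 0.00089) and -2.14 ± 0.26 against SCC6 (edgeR adjusted p = 0.00088). CYR61, a matricellular protein and common readout of YAP activity, was at 54.7 and 91.6 CPM in SCC25, 477 and 482 in SCC1 and 302 and 245 in SCC6. AMOTL2, an angiomotin that binds YAP, was at 14.9 and 15.1 CPM in SCC25, 72 and 69.6 in SCC1 and 97.1 and 34 in SCC6. The SCC25 samples of these genes were below all others. Other members were PLA2G16, CXXC5, AKR1B1, AKAP12, PSIP1, SERPINB1, PCSK1N, CLIC3, CST6, FADS1 and DDAH2. In all 20 genes both SCC25 samples lay below all 4 others. The call of AKAP12, a scaffold of protein kinase A, was lost with all 12 samples in 1 fit (adjusted p = 0.051), without SCC1 replicate 1 (adjusted p = 0.13) and without SCC25 replicate 2 (adjusted p = 0.12).

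Genes were then read by function, in lists given by how many members were called in each direction and by their median log2 fold change. Every list count stands beside the shares over all genes, 11.5% called higher and 5.91% called lower. The lists were not matched for level, and over all genes the higher share was 19.3% under 1 CPM and 6.47% from 10 to 100 CPM. A list count of 3 or fewer often changed by 1 or more when a sample was left out. Larger counts are followed by their value without a sample where that moved them by more than 1.5 times. KRT14 and KRT5, the basal keratin pair, were at their highest in SCC25, and SCC6 nearly lacked them. KRT14 was at 2492 and 4592 CPM in SCC25, 1098 and 1299 in SCC1 and 0.896 and 0.412 in SCC6. KRT5, its partner, was at 974 and 2241 CPM in SCC25, 316 and 550.0 in SCC1 and 1.11 and 1.57 in SCC6. Both keratins ran SCC25, SCC1, SCC6 in falling order with no overlap of samples. Against SCC6 the log2 fold changes were 12.40 ± 0.64 (edgeR adjusted p = 4e-05) for KRT14 and 10.22 ± 0.65 (edgeR adjusted p = 7.3e-05) for KRT5. Against SCC1 they were 1.56 ± 0.40 (edgeR adjusted p = 0.02) and 1.89 ± 0.45 (edgeR adjusted p = 0.014), and here the calls were fragile. The call of KRT14 was lost without SCC1 replicate 1 (adjusted p = 0.095), without SCC1 replicate 2 (adjusted p = 0.058) and without SCC25 replicate 2 (adjusted p = 0.084), and that of KRT5 without SCC1 replicate 1 (adjusted p = 0.074) and without SCC25 replicate 2 (adjusted p = 0.054). Of the 4 basal keratins tested, 2 were called higher and 0 lower, against 0 without SCC1 replicate 1 or SCC25 replicate 2 and 1 without SCC1 replicate 2.

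Among the stress keratins, KRT6A and KRT16 were higher in SCC25 than in both lines and KRT17 was not. KRT6A was at 799 and 1175 CPM in SCC25, 29.9 and 31.6 in SCC1 and 23 and 17.1 in SCC6, with both SCC25 samples far above the rest, and the fold change was 5.0 ± 0.32 against SCC1 (edgeR adjusted p = 8.5e-05) and 5.62 ± 0.33 against SCC6 (edgeR adjusted p = 6.2e-05). Its relatives KRT6B and KRT6C are nearly identical in sequence, and 3′ reads may be divided among them. KRT4, a keratin of the suprabasal oral mucosa, was at 1.28 and 29.4 CPM in SCC25, 0.425 and 0.319 in SCC1 and 0.0345 and 0.0211 in SCC6, with a wide gap between the SCC25 samples, and its call was lost without SCC6 replicate 1 (adjusted p = 0.0504). KRT16, given here after its values were seen, was at 58.4 and 122 CPM in SCC25, 14.9 and 16.6 in SCC1 and 10.5 and 7.04 in SCC6. KRT17, likewise, was at 1662 and 3089.6 CPM in SCC25, 3088 and 3179 in SCC1 and 888 and 477 in SCC6, so that SCC1 was as high as SCC25. Of 14 stress and suprabasal keratins tested, 5 were called higher (KRT4, KRT6A, KRT6C, KRT16 and KRT75) and 0 lower, with medians of 1.51 against SCC1 and 3.87 against SCC6.

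Squamous transcription factors were raised in part. SOX2, a lineage factor of squamous carcinoma, was at 19.7 and 31.7 CPM in SCC25, 0.159 and 0.489 in SCC1 and 2.06 and 3.18 in SCC6. IRX4 was at 36.6 and 46.2 CPM in SCC25, 0.106 and 0.359 in SCC1 and 2.32 and 4.3 in SCC6, and SOX15 at 144 and 144 CPM in SCC25, 56.5 and 59 in SCC1 and 27.2 and 36.6 in SCC6. In each, both SCC25 samples were above all 4 others, and the fold changes were 6.27 ± 0.58 against SCC1 (edgeR adjusted p = 0.00029) and 3.29 ± 0.49 against SCC6 (edgeR adjusted p = 0.0021) for SOX2 and 1.32 and 2.17 for SOX15. IRX2, from the same gene cluster as IRX4, ran the other way at 8.23 and 6.59 CPM in SCC25, 27.1 and 24.1 in SCC1 and 22.4 and 20.1 in SCC6. Over the 36 squamous transcription factors tested, 8 were called higher and 2 lower, with medians of 0.47 against SCC1 and 0.45 against SCC6. TP63, given after its values were seen, was at 69.8 and 31.3 CPM in SCC25, 21.8 and 15 in SCC1 and 13.6 and 6.61 in SCC6, with a fold change of 1.46 ± 0.47 against SCC1 (edgeR adjusted p = 0.046) and 2.32 ± 0.49 against SCC6 (edgeR adjusted p = 0.0087), and its call was lost without SCC1 replicate 1 (adjusted p = 0.077), without SCC1 replicate 2 (adjusted p = 0.19) and without SCC25 replicate 1 (adjusted p = 0.27).

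Genes of cell contacts were called in both directions. PKP1, a desmosome plaque protein, was at 40.3 and 51.9 CPM in SCC25, 10.4 and 13.9 in SCC1 and 0.115 and 0.0633 in SCC6. DSG3, the desmoglein of basal and spinous cells, was at 28.6 and 30.1 CPM in SCC25, 9.69 and 8.48 in SCC1 and 0.264 and 0.158 in SCC6. SCC6 had next to none of either, and SCC1 lay between. Of 11 desmosome genes, 3 were called higher and 0 lower. Of 42 cadherin and junction genes, 11 were called higher (6 without SCC1 replicate 2 and 7 without SCC1 replicate 1) and 6 lower (3 without SCC6 replicate 1). The higher group held the connexins GJA1, GJB2, GJB5 and GJB6, among others, and connexins form gap junctions. GJB6 was at 21.7 and 25.3 CPM in SCC25, 3.88 and 3.84 in SCC1 and 0.149 and 0.179 in SCC6, and GJA1 at 15.2 and 17.8 CPM in SCC25, 2.94 and 1.99 in SCC1 and 0.0115 and 0.0845 in SCC6. The lower group comprised CLDN7, OCLN, CGN, MARVELD3, RAB25 and LLGL2. RAB25, an epithelial recycling GTPase, was at 33.9 and 54.7 CPM in SCC25, 127 and 122 in SCC1 and 225 and 192 in SCC6, with a fold change of -1.49 ± 0.28 against SCC1 (edgeR adjusted p = 0.0053) and -2.24 ± 0.29 against SCC6 (edgeR adjusted p = 0.0011).

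Terminal differentiation gave no single direction. Of 29 cornified envelope and differentiation genes, 5 were called higher (CALML3, LY6D, ASPRV1, CASP14 and ALOX12B) and 3 lower (SCEL, CST6 and PI3), with medians of 0.36 against SCC1 and -0.77 against SCC6. CST6, the cystatin M/E protease inhibitor, was at 67 and 87.9 CPM in SCC25, 309 and 203 in SCC1 and 238 and 347 in SCC6. Of 19 clade B serpins and kallikreins, 7 were called higher, 6 of them kallikreins, and 2 were called lower. KLK7, a desquamation protease, was at 13.4 and 15.9 CPM in SCC25, 0.186 and 0.0499 in SCC1 and 0.77 and 0.359 in SCC6, and KLK1 at 10.7 and 11.6 CPM in SCC25, 0.093 and 0.0998 in SCC1 and 0.333 and 0.222 in SCC6. SERPINB1, an inhibitor of neutrophil proteases, was at 12.9 and 26.6 CPM in SCC25, 64.6 and 82.5 in SCC1 and 93.3 and 59.5 in SCC6. Both kallikreins were thus almost confined to SCC25 among these 6 samples, and SERPINB1 was lowest in SCC25.

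**Figure D3:**
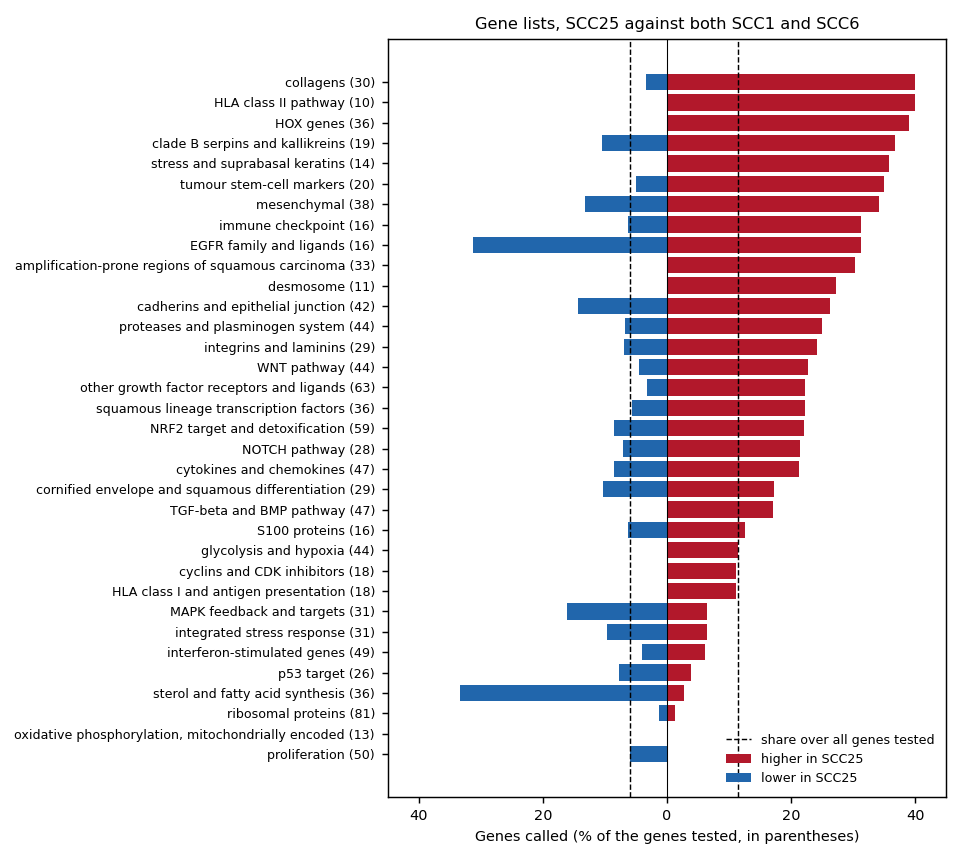
Percentage of tested genes called higher (right) and lower (left) in SCC25 than in both other lines, for each gene list with at least 10 tested genes. Dashed lines give the share over all 17229 genes, 11.5% higher and 5.91% lower, and sterol and fatty acid synthesis reaches 33.3% lower.

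SCC25 combined these squamous genes with a subset of mesenchymal genes. VIM, the intermediate filament vimentin, was at 368 and 261 CPM in SCC25, 1.93 and 6.28 in SCC1 and 32.3 and 90 in SCC6. The SCC25 samples exceeded the other 4, and SCC6 held an intermediate level with replicates far apart. The log2 fold change was 6.25 ± 0.76 against SCC1 (edgeR adjusted p = 0.00087) and 2.36 ± 0.63 against SCC6 (edgeR adjusted p = 0.023), and the call was lost without SCC25 replicate 1 (adjusted p = 0.0501) and without SCC6 replicate 1 (adjusted p = 0.11). TWIST2, a transcription factor of mesenchyme, was at 23.4 and 16 CPM in SCC25, 0.0133 and 0.00998 in SCC1 and 0 and 0 in SCC6, 1690-fold (95% counting interval 466 to 13900) the level of SCC1 and at least 1160-fold that of SCC6. LUM, the matrix proteoglycan lumican, was at 8.33 and 30.1 CPM in SCC25, 0.0133 and 0.00998 in SCC1 and 0.0689 and 0.211 in SCC6. CDH2 (N-cadherin), given after its values were seen, was at 66.4 and 29.7 CPM in SCC25, 4.11 and 2.69 in SCC1 and 9.7 and 13.9 in SCC6, with a fold change of 3.82 ± 0.47 against SCC1 (edgeR adjusted p = 0.00087) and 2.03 ± 0.43 against SCC6 (edgeR adjusted p = 0.009), and its call was lost without SCC6 replicate 1 (adjusted p = 0.067).

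Other genes of the same list were lower in SCC25, among them FN1, SNAI1, TAGLN and CYR61. Of 38 mesenchymal genes, 13 were called higher and 5 lower, with medians of 0.10 against SCC1 and 1.08 against SCC6. The lower count was 2 without SCC1 replicate 1 and 3 without SCC1 replicate 2 or either SCC6 replicate. Of 8 fibroblast markers tested, 5 were called higher and 0 lower, and their part in the result was not tested. COL1A1, not called, was at 6.1 and 5.35 CPM in SCC25 and 2.56 and 2.68 in SCC1. COL1A2 and FAP were higher in SCC1 than in SCC25. COL1A2 was at 1.85 and 1.25 CPM in SCC25 and 4.46 and 4.18 in SCC1. FAP was at 1.92 and 2.84 CPM in SCC25 and 8.52 and 8.53 in SCC1.

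Of 30 collagen genes tested, 12 were called higher in SCC25 (40%, beside 11.5% over all genes) and 1 lower (COL4A4), with medians of 1.09 against SCC1 and 2.58 against SCC6. COL6A2, a chain of microfibrillar collagen VI, was at 11.9 and 13.4 CPM in SCC25, 0.0797 and 0.21 in SCC1 and 0.0574 and 0.116 in SCC6, and COL6A1 at 10.1 and 10.8 CPM in SCC25, 0.0797 and 0.23 in SCC1 and 1.22 and 1.68 in SCC6. The SCC25 samples of both were several times every other sample. Of 29 integrins and laminins, 7 were called higher (4 without SCC1 replicate 2 or SCC25 replicate 1) and 2 lower. ITGB6, the epithelial chain that activates latent TGF-beta, was at 38.2 and 27.9 CPM in SCC25, 19.2 and 12.2 in SCC1 and 9.7 and 11 in SCC6, and its call was lost with all 12 samples in 1 fit (adjusted p = 0.13), without SCC1 replicate 2 (adjusted p = 0.2) and without SCC25 replicate 1 (adjusted p = 0.12). LAMB2, the laminin beta 2 chain, had 3 UMIs in SCC25 and was at 0 and 0.0286 CPM in SCC25, 12.4 and 10.8 in SCC1 and 11.1 and 10.4 in SCC6, a ratio of 719-fold (95% counting interval 246 to 3490) to SCC1 and 670-fold (95% counting interval 229 to 3250) to SCC6.

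Proteases outside MMP1 followed no common direction. Of 44 genes of proteases and the plasminogen system, 11 were called higher and 3 lower. The higher count was 5 without SCC25 replicate 2 and 6 without either SCC6 replicate. TMPRSS4, a membrane serine protease, was at 12 and 15.6 CPM in SCC25, 0 and 0.15 in SCC1 and 2.94 and 2.3 in SCC6, and its call was lost with the DESeq2 test (adjusted p = 0.15), without SCC6 replicate 1 (adjusted p = 0.062) and without SCC6 replicate 2 (adjusted p = 0.078). TIMP3, a matrix-bound inhibitor of metalloproteinases, was at 59.1 and 61.6 CPM in SCC25, 153 and 138 in SCC1 and 204 and 133 in SCC6, and its call was lost without SCC1 replicate 1 (adjusted p = 0.053). SCC25 was the highest line for TMPRSS4 and the lowest for TIMP3, with no overlap of samples in either.

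Genes of the EGFR family and receptor regulators such as LRIG1 and LRIG3 were called in both directions. The called receptors, ERBB2 and ERBB3, were lower. Of 16 tested, 5 were called higher (EGF, NRG2, NRG4, LRIG1 and LRIG3) and 5 lower (ERBB2, ERBB3, AREG, EREG and BTC). The counts were 3 without either SCC1 replicate or SCC25 replicate 2 for higher calls and 2 without SCC1 replicate 1 or SCC25 replicate 2 and 3 without SCC1 replicate 2 for lower calls. ERBB2, the co-receptor HER2, was at 6.85 and 8.49 CPM in SCC25, 20.8 and 21.9 in SCC1 and 17.9 and 18.5 in SCC6, with a fold change of -1.48 ± 0.23 against SCC1 (edgeR adjusted p = 0.0026) and -1.25 ± 0.23 against SCC6 (edgeR adjusted p = 0.0052). ERBB3, a co-receptor given after its values were seen, was at 8.05 and 10.1 CPM in SCC25, 21 and 20 in SCC1 and 18.7 and 21.1 in SCC6, and its call was lost without SCC1 replicate 1 (adjusted p = 0.056). EREG, likewise, was at 3.47 and 2.32 CPM in SCC25, 7.6 and 9.73 in SCC1 and 213 and 102 in SCC6, and its call was lost without SCC1 replicate 2 (adjusted p = 0.071) and without SCC25 replicate 2 (adjusted p = 0.076). NRG4, a ligand of ERBB4, was at 9.38 and 10.7 CPM in SCC25, 2.22 and 1.42 in SCC1 and 0.816 and 1.59 in SCC6. EGF, also called higher, had only 109 UMIs over both SCC25 samples. SCC25 had the least of ERBB2, ERBB3 and EREG and the most of NRG4 in every sample. EGFR itself was at 86 and 108 CPM in SCC25, 58.9 and 70.6 in SCC1 and 99.5 and 82.9 in SCC6, so its samples overlapped those of SCC6. The log2 fold change of EGFR was 0.58 ± 0.24 against SCC1 (edgeR adjusted p = 0.094) and 0.09 ± 0.24 against SCC6 (edgeR adjusted p = 0.8), which met the criterion against neither line.

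TFAP2A and AXL, the further genes of interest of the study, were not called. TFAP2A, a transcription factor of epidermis, was at 58.3 and 53.5 CPM in SCC25, 121 and 125 in SCC1 and 52 and 53.7 in SCC6. SCC1 alone was higher and SCC25 and SCC6 overlapped, with a fold change of -1.14 ± 0.21 against SCC1 (edgeR adjusted p = 0.0046) and 0.08 ± 0.20 against SCC6 (edgeR adjusted p = 0.78). AXL, a receptor tyrosine kinase linked to drug resistance, was at 94.1 and 43 CPM in SCC25, 158 and 110.3 in SCC1 and 93.8 and 95 in SCC6. The SCC25 samples were far apart and overlapped those of SCC6, and the log2 fold change was -0.97 ± 0.38 against SCC1 (edgeR adjusted p = 0.081) and -0.46 ± 0.37 against SCC6 (edgeR adjusted p = 0.37). AXL was called lower than both lines without SCC25 replicate 1 (adjusted p = 0.032).

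Downstream of the receptors, the MAPK feedback phosphatases went in both directions. DUSP6, the ERK phosphatase, was at 48 and 57.9 CPM in SCC25, 23.1 and 25.6 in SCC1 and 10.8 and 15.5 in SCC6, and DUSP10, which acts on JNK and p38, was at 69.4 and 102 CPM in SCC25, 10.7 and 16 in SCC1 and 36.4 and 20.2 in SCC6. DUSP5, a nuclear ERK phosphatase, was at 7.32 and 19.6 CPM in SCC25, 95.1 and 89.8 in SCC1 and 55.6 and 24.3 in SCC6. ATF3, a stress-induced AP-1 family factor, was at 4.95 and 8.87 CPM in SCC25, 73.8 and 58.4 in SCC1 and 31.4 and 53.9 in SCC6, with a fold change of -3.26 ± 0.40 against SCC1 (edgeR adjusted p = 0.0009) and -2.62 ± 0.39 against SCC6 (edgeR adjusted p = 0.002). SCC25 was highest in the first pair of genes and lowest in the second, with no overlap. Over 31 genes of MAPK feedback and output, 2 were called higher and 5 lower (DUSP4, DUSP5, JUN, ATF3 and MYEOV). The counts were 1 without either SCC1 replicate for higher calls and 3 without SCC6 replicate 1 for lower calls. The call of DUSP6 was lost without SCC1 replicate 1 (adjusted p = 0.11) and without SCC1 replicate 2 (adjusted p = 0.073), that of DUSP10 without SCC6 replicate 2 (adjusted p = 0.06) and that of DUSP5 with all 12 samples in 1 fit (adjusted p = 0.13), without SCC25 replicate 1 (adjusted p = 0.14), without SCC6 replicate 1 (adjusted p = 0.29) and without the 5% of cells with most UMIs (adjusted p = 0.058).

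Other growth factor genes were called higher in 14 of 63 (22.2%, beside 11.5% over all genes) and lower in 2 (3.17%, beside 5.91%). IGFBP2, an insulin-like growth factor binding protein, was at 44.3 and 82.3 CPM in SCC25, 0.0133 and 0.0799 in SCC1 and 5.7 and 6.9 in SCC6. NTRK2, the BDNF receptor, was at 5.3 and 16.2 CPM in SCC25, 0 and 0 in SCC1 and 0.241 and 0.581 in SCC6, with 0 UMIs in SCC1. MET, the hepatocyte growth factor receptor, was at 17.6 and 12.1 CPM in SCC25, 58.4 and 44.4 in SCC1 and 45.4 and 29.5 in SCC6, and its call was lost without SCC25 replicate 2 (adjusted p = 0.063) and without SCC6 replicate 1 (adjusted p = 0.076). SCC25 lay above all other samples for IGFBP2 and NTRK2 and below them for MET.

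Developmental signalling genes included several that SCC25 had at higher levels. SFRP1, a secreted WNT antagonist, was at 181 and 112 CPM in SCC25, 0 and 0 in SCC1 and 17.2 and 19.3 in SCC6. It was at least 8350-fold higher than in SCC1, where it had 0 UMIs, and the log2 fold change against SCC6 was 3.01 ± 0.31 (edgeR adjusted p = 0.00082). DKK3, of the dickkopf family, was at 97.2 and 126 CPM in SCC25, 44 and 49.5 in SCC1 and 3.87 and 4.61 in SCC6, and its call was lost without SCC1 replicate 1 (adjusted p = 0.066). Of 44 WNT pathway genes, 10 were called higher (22.7%, beside 11.5% over all genes) and 2 lower, FZD2 and FZD3. BMP7, a bone morphogenetic protein, was at 20.6 and 31.8 CPM in SCC25, 0.106 and 0.0399 in SCC1 and 0.0919 and 0.0422 in SCC6. Of 47 TGF-beta and BMP pathway genes, 8 were called higher (17%), among them BMP1, BMP2, BMP4, BMP7 and GREM1. In this list 0 were called lower, or 3 without SCC25 replicate 1. The SCC25 samples of SFRP1, DKK3 and BMP7 lay above all others.

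NOTCH pathway genes were called higher in 6 of 28 (2 without SCC1 replicate 2 and 3 without SCC1 replicate 1) and lower in 2. HES2, of the HES repressor family, was at 60.1 and 82.1 CPM in SCC25, 6.92 and 9.02 in SCC1 and 7.46 and 5.36 in SCC6, and JAG1, a NOTCH ligand, at 64.2 and 44.1 CPM in SCC25, 18.8 and 15.6 in SCC1 and 14.1 and 6.7 in SCC6. NOTCH3, a receptor, was at 2.13 and 5.31 CPM in SCC25, 13.1 and 13.4 in SCC1 and 22.3 and 21.9 in SCC6. JAG1 and NOTCH3 thus lay on opposite sides, while DLL3, a further ligand gene, was called lower like NOTCH3. None of HES2, JAG1 and NOTCH3 overlapped between SCC25 and the rest. The call of JAG1 was lost without SCC1 replicate 2 (adjusted p = 0.074) and without SCC25 replicate 1 (adjusted p = 0.054).

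HOX genes, which record position along the body axis, were called higher in 14 of 36 and lower in 0, with medians of 0.76 against SCC1 and 1.97 against SCC6. HOXA9 was at 16.3 and 14.5 CPM in SCC25, 1.26 and 1.08 in SCC1 and 1.77 and 2.05 in SCC6, and HOXC10 at 34.6 and 35.5 CPM in SCC25, 6.04 and 7.25 in SCC1 and 1.73 and 2.96 in SCC6, so the replicates lay close together and apart from the other lines. The fold changes were 3.72 ± 0.27 against SCC1 (edgeR adjusted p = 0.00012) and 3.01 ± 0.26 against SCC6 (edgeR adjusted p = 0.00021) for HOXA9 and 2.40 ± 0.31 against SCC1 (edgeR adjusted p = 0.0011) and 3.90 ± 0.33 against SCC6 (edgeR adjusted p = 0.0002) for HOXC10. The called members were 3 of the A cluster, 2 of the B cluster, 6 of the C cluster and 3 of the D cluster. The higher count was 6 without either SCC1 replicate and 9 without SCC25 replicate 1.

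Immune genes included 4 higher class II calls, with HLA-DRA in few SCC25 cells, and few interferon calls. Of 18 class I genes 2 were called higher, and of 10 class II genes 4 (HLA-DRA, HLA-DPA1, HLA-DPB1 and CIITA). The class II count was 2 without either SCC1 replicate or SCC25 replicate 2 or SCC6 replicate 1. Interferon-stimulated genes lay below SCC1 and above SCC6, with medians of -1.26 against SCC1 and 2.58 against SCC6, and 3 of 49 were called higher and 2 lower (MX1 and MX2). OASL, an antiviral protein, was at 60.7 and 149 CPM in SCC25, 28.9 and 13.1 in SCC1 and 0.54 and 2.16 in SCC6, and GBP2, an interferon-induced GTPase, at 10.4 and 58 CPM in SCC25, 4.56 and 7.65 in SCC1 and 6.95 and 7.26 in SCC6. The call of OASL was lost without SCC1 replicate 2 (adjusted p = 0.13) and without SCC25 replicate 2 (adjusted p = 0.14), and that of GBP2 without SCC1 replicate 1 (adjusted p = 0.11), without SCC25 replicate 2 (adjusted p = 0.29), without SCC6 replicate 1 (adjusted p = 0.16) and without SCC6 replicate 2 (adjusted p = 0.14).

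Cytokines and chemokines were called higher in 10 of 47 and lower in 4 (IL1B, LIF, CXCL2 and CXCL8). CXCL14, a chemokine of normal squamous epithelium, was at 12.7 and 11.5 CPM in SCC25, 0.0133 and 0 in SCC1 and 0.0115 and 0.0211 in SCC6. CCL26, an eosinophil attractant, was at 31.9 and 26.2 CPM in SCC25, 0.093 and 0.0499 in SCC1 and 3.27 and 1.26 in SCC6. Among these 6 samples CXCL14 and CCL26 were almost restricted to SCC25. CXCL2, a neutrophil attractant given after its values were seen, was at 5.51 and 6.92 CPM in SCC25, 32.7 and 27.5 in SCC1 and 18.8 and 9.85 in SCC6, and its call was lost with all 12 samples in 1 fit (adjusted p = 0.071), without SCC25 replicate 1 (adjusted p = 0.1), without SCC25 replicate 2 (adjusted p = 0.053) and without SCC6 replicate 1 (adjusted p = 0.14). Of 16 immune checkpoint genes, 5 were called higher (1 without SCC1 replicate 1 and 2 without SCC1 replicate 2 or SCC6 replicate 2) and 1 lower (CD274, which encodes PD-L1). TNFRSF14, a receptor of the B and T lymphocyte attenuator, was at 10.7 and 17 CPM in SCC25, 2.74 and 2.75 in SCC1 and 0.0689 and 0.0317 in SCC6.

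Of 36 genes of sterol and fatty acid synthesis, 12 were called lower, or 33.3% beside 5.91% over all genes, and 1 was called higher. Medians were -0.75 against SCC1 and -0.76 against SCC6. FADS1, a fatty acid desaturase, was at 20.7 and 22.7 CPM in SCC25, 62.7 and 74 in SCC1 and 74.6 and 65 in SCC6, with a fold change of -1.66 ± 0.23 against SCC1 (edgeR adjusted p = 0.0014) and -1.69 ± 0.23 against SCC6 (edgeR adjusted p = 0.0013). SQLE, given after its values were seen, is the squalene epoxidase and was at 40.9 and 26.1 CPM in SCC25, 99.9 and 104 in SCC1 and 259 and 287 in SCC6. The SCC25 samples of both genes lay below every other sample. The exception was SREBF1, which encodes a regulator of these enzymes, at 21.9 and 26.9 CPM in SCC25, 11.2 and 12.8 in SCC1 and 15 and 13.7 in SCC6, and its call was lost with no low-count filter (adjusted p = 0.058), without SCC1 replicate 1 (adjusted p = 0.13), without SCC1 replicate 2 (adjusted p = 0.093), without SCC25 replicate 2 (adjusted p = 0.14), without SCC6 replicate 1 (adjusted p = 0.084) and without SCC6 replicate 2 (adjusted p = 0.11). The lower count was 5 without SCC1 replicate 2 and 7 without SCC25 replicate 1.

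Genes of detoxification and the NRF2 response were called higher in 13 of 59 and lower in 5 (3 without SCC6 replicate 1), with medians of 0.72 against SCC1 and 0.40 against SCC6. GSTA4, a glutathione transferase, was at 9.94 and 23.2 CPM in SCC25, 0.199 and 0.349 in SCC1 and 0.391 and 0.623 in SCC6. AKR1B1, an aldose reductase, was at 33.7 and 59 CPM in SCC25, 179 and 269 in SCC1 and 732 and 1212 in SCC6, with a fold change of -2.27 ± 0.39 against SCC1 (edgeR adjusted p = 0.0038) and -4.39 ± 0.43 against SCC6 (edgeR adjusted p = 0.00035). CYP1B1, an aryl hydrocarbon receptor target, was at 5.35 and 10.3 CPM in SCC25, 48.4 and 43.3 in SCC1 and 109 and 52.1 in SCC6. GSTA4 was highest and the other genes lowest in SCC25, with no overlap of samples. Beside these, 5 of 44 glycolysis and hypoxia genes were called higher (3 without SCC1 replicate 1) and 0 lower (2 without SCC25 replicate 2), or 11.4% higher beside 11.5% over all genes. The higher genes included the carbonic anhydrase CA12 at 25.7 and 25.9 CPM in SCC25, 0.279 and 0.359 in SCC1 and 0.103 and 0.127 in SCC6.

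Growth and housekeeping genes were examined next. Of 50 proliferation genes 0 were called higher and 3 lower (MCM4, GINS2 and CDC45), which is 6.0% beside 5.91% over all genes. Of 81 ribosomal protein genes 1 was called each way, and of 13 mitochondrially encoded genes none. RPL39L, a ribosomal protein paralogue, was at 267 and 183 CPM in SCC25, 13.3 and 13.4 in SCC1 and 105 and 109 in SCC6. NUPR1, a stress-induced chromatin protein, was at 252 and 319.6 CPM in SCC25, 95.1 and 83.6 in SCC1 and 3.41 and 3.71 in SCC6, with a fold change of 1.68 ± 0.23 against SCC1 (edgeR adjusted p = 0.0015) and 6.33 ± 0.28 against SCC6 (edgeR adjusted p = 3.3e-05). CDKN1C, the CDK inhibitor p57, was at 12.2 and 10.2 CPM in SCC25, 0.239 and 0.329 in SCC1 and 3.04 and 2.16 in SCC6, and CCND1, cyclin D1, was at 864 and 942 CPM in SCC25, 440.3 and 428 in SCC1 and 319 and 283 in SCC6. SCC25 was the highest line for these 4 genes in every sample. CCND1 had a fold change of 1.06 ± 0.21 against SCC1 (edgeR adjusted p = 0.0066) and 1.58 ± 0.21 against SCC6 (edgeR adjusted p = 0.0013), and its call was lost without SCC1 replicate 1 (adjusted p = 0.069) and without SCC1 replicate 2 (adjusted p = 0.074). The call of RPL39L was lost without SCC25 replicate 1 (adjusted p = 0.054) and without SCC6 replicate 1 (adjusted p = 0.062).

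CCND1 lies on the long arm of chromosome 11, where calls of both directions lay next to each other. This stretch was examined after its values were seen, with 8408 genes that had a mapped start and 10 CPM or more in a line, of which 8.14% were called higher and 6.39% lower. Between 68 and 70 Mb of chromosome 11 (RefSeq GRCh38.p14), which holds CCND1, 6 of 17 genes were called higher and 2 lower, MYEOV and TESMIN. Between 70 and 74 Mb, 24 of 27 genes were called higher and 0 lower, with medians of 1.60 against SCC1 and 1.93 against SCC6. Between 74 and 100 Mb, 23 of 50 were called lower and 2 higher, with medians of -1.06 and -0.90. The turn came between PAAF1, at 1.52 and 1.87, and the next gene PPME1, at -1.23 and -1.0. Beyond 100 Mb, 13 of 111 genes were called higher and 3 lower.

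Individual genes in and next to the raised stretch showed the same spacing. CTTN, the actin-binding cortactin, was at 502 and 416 CPM in SCC25, 155 and 136 in SCC1 and 93.4 and 79.3 in SCC6. FADD, the death receptor adaptor, was at 206 and 285 CPM in SCC25, 35.6 and 46 in SCC1 and 15.4 and 32.5 in SCC6. ANO1, a chloride channel, was at 28.7 and 37.8 CPM in SCC25, 0.0399 and 0 in SCC1 and 0.563 and 0.422 in SCC6. LAMTOR1, a lysosomal anchor of mTORC1 signalling, was at 931 and 907 CPM in SCC25, 272 and 254 in SCC1 and 172 and 178 in SCC6. The SCC25 samples of these genes were above all others, and CTTN had a fold change of 1.66 ± 0.23 against SCC1 (edgeR adjusted p = 0.0015) and 2.41 ± 0.24 against SCC6 (edgeR adjusted p = 0.00034). With 1 sample left out the higher count between 70 and 74 Mb was 18 to 22 of 27, lowest without SCC1 replicate 1. The lower count between 74 and 100 Mb was 13 to 18 of 50, at 13 without SCC1 replicate 1 or replicate 2 and at 15 without SCC25 replicate 2. Of 33 genes of regions often amplified in squamous carcinoma, 10 were called higher and 0 lower, 8 of them from chromosome 11. MYEOV, called lower beside CCND1, was counted in the MAPK list and not in this list. DNA copy number was not measured here.

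**Figure D4:**
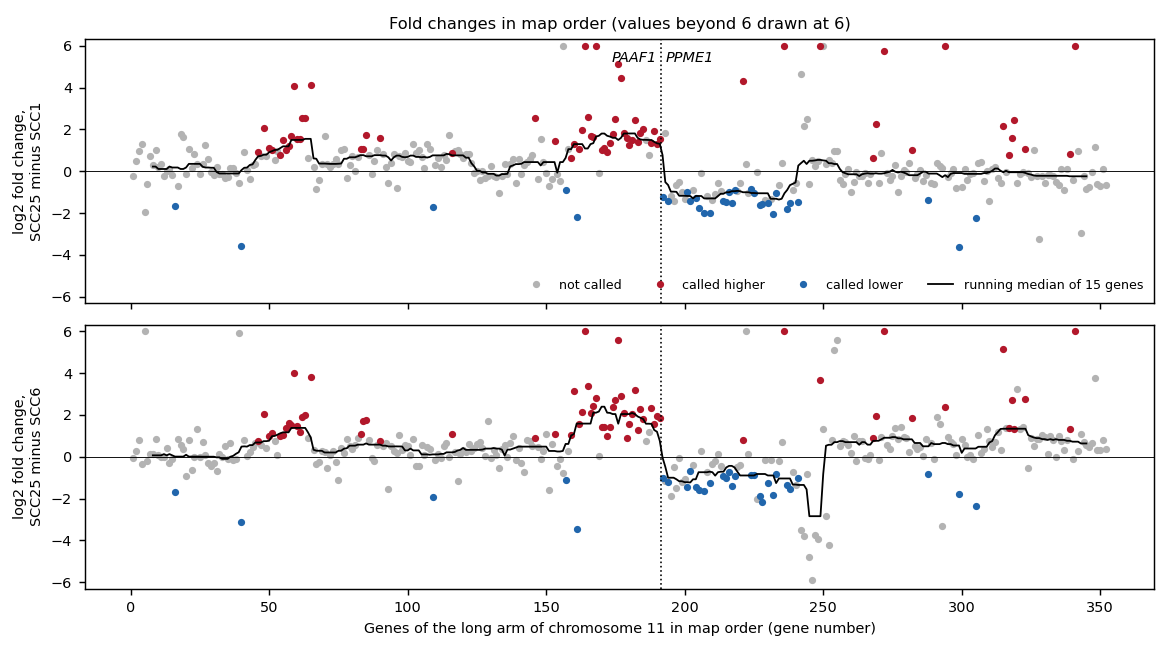
Log2 fold change of SCC25 over SCC1 and over SCC6 (points, clipped at 6) for 352 genes of the chromosome 11 long arm in map order, with the running median of 15 genes as a line for each comparison. A raised run of genes ends at the dotted line between PAAF1 and PPME1, and the genes after it lie mostly below 0.

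Neighbouring genes were also nearly silent together in SCC25 at 2 further places, both found after the values were seen. On chromosome 21, from BACE2 to ABCG1 (chr21:41168160-42297244), 14 genes had UMIs in at least 1 line. SCC25 held 4 UMIs over the whole interval, against 39556 in SCC1 and 7196 in SCC6. All 7 called genes of the interval were lower in SCC25: BACE2, MX2, MX1, RIPK4, PRDM15, C2CD2 and ZBTB21. RIPK4, a kinase of keratinocyte differentiation, was at 0 and 0 CPM in SCC25, 10.4 and 16.9 in SCC1 and 12 and 16.6 in SCC6, at least 880-fold lower than SCC1 and at least 900-fold lower than SCC6. MX1, an interferon-induced antiviral GTPase, was at 0 and 0.0191 CPM in SCC25, 198 and 168 in SCC1 and 1.44 and 2.68 in SCC6. The MX genes that made up the lower interferon calls therefore belong to this interval. Expressed genes on either side, such as HMGN1 with 73127 UMIs and SLC37A1 with 465, were present in SCC25.

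Near the end of the chromosome 4 long arm a similar run spanned TLR3, CYP4V2, FAT1, TRIML2 and LINC02434. FAT1, a protocadherin, had 1 UMI in SCC25 and was at 0.0121 and 0 CPM in SCC25, 59.3 and 28.2 in SCC1 and 28.9 and 14.7 in SCC6, a ratio of 7780-fold (95% counting interval 1400 to 307000) to SCC1 and 4040-fold (95% counting interval 724 to 159000) to SCC6. TLR3, the double-stranded RNA receptor, had 0 UMIs against 470 in SCC1 and 55 in SCC6. LINC02434 had 0 UMIs against 3013 and 2287. SORBS2, the gene before TLR3, had 6 UMIs against 2963 and 441 and was called lower. FRG1, beyond the run, was present at 759 UMIs against 5946 and 5037. FRG1 had a fold change of -3.02 ± 0.33 against SCC1 and -2.73 ± 0.32 against SCC6.

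Genes at or near 0 were not more numerous in SCC25 than in the other lines. Among genes with 1 CPM or more in both other lines, 21 of 10812 had at most 3 UMIs in SCC25 (0.194%), against 72 of 11100 in SCC1 (0.649%) and 60 of 10970 in SCC6 (0.547%). The longest run of such neighbours was 6 genes in SCC25, 2 in SCC1 and 11 in SCC6.

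Single cells showed whether these levels were spread over the cultures. Every cell was thinned to 15000 UMIs, which left out 1.56 to 5.61% of cells per sample as too shallow. At that depth 4 genes of other tissues were found in at most 0.137% of cells. GPX3 was found in 82.4% and 75.1% of SCC25 cells, 0% and 0% of SCC1 cells and 0% and 0% of SCC6 cells, and without thinning in 92.1% and 90% of SCC25 cells. CALML3 was found in 94.9% and 91.5% of SCC25 cells, 0% and 0.061% of SCC1 cells and 0% and 0% of SCC6 cells. Both genes were thus common to most SCC25 cells and in no more cells elsewhere than genes of other tissues were. A count of 0 in the smallest sample allows up to 0.247% of cells with a UMI at this depth (3 cells), and exact 95% intervals of the shares spanned at most 5.7 percentage points. KRT6A was found in 98.2% and 97.4% of SCC25 cells, 15.4% and 15.4% of SCC1 cells and 13.6% and 10.5% of SCC6 cells. LY6D was found in 85.1% and 95.7% of SCC25 cells, 13.6% and 19.6% of SCC1 cells and 9.62% and 7.27% of SCC6 cells, so that the lines differed in the share of cells as well as in the summed level.

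Some genes were found in a share of cells that differed widely between the SCC25 samples. CLEC2B, a C-type lectin, was found in 18.4% and 70.5% of SCC25 cells, 3.62% and 6.77% of SCC1 cells and 0.415% and 1.23% of SCC6 cells. FBP1 was found in 20.4% and 56.9% of SCC25 cells, 0.165% and 0% of SCC1 cells and 0.0377% and 0.0821% of SCC6 cells. GBP2 was found in 11.4% and 46.6% of SCC25 cells. The second SCC25 sample was the higher in all 3 genes. In the other direction, FN1 was found in 27.7% and 7.27% of SCC25 cells, 84.2% and 74.8% of SCC1 cells and 91.9% and 91.9% of SCC6 cells, and C4orf48 in 0.0457% and 0% of SCC25 cells, 97.3% and 93.7% of SCC1 cells and 82.2% and 82.1% of SCC6 cells. For FN1 the first SCC25 sample was the higher.

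**Figure D5:**
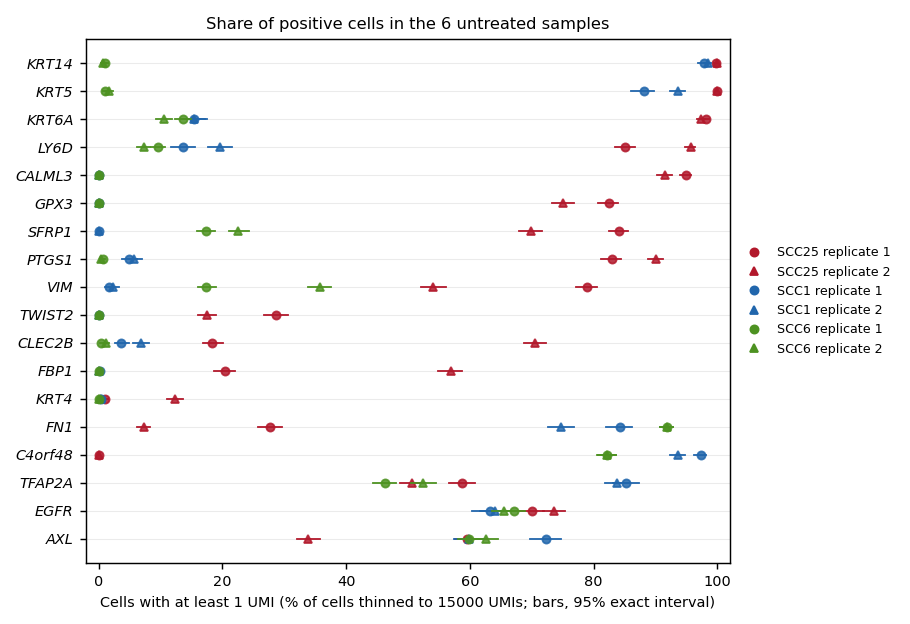
Percentage of cells with at least 1 UMI of each gene after thinning to 15000 UMIs per cell, with 1 point for each of the 6 PBS samples coloured by line. SCC25 stands apart for KRT6A, LY6D, CALML3 and GPX3, shares KRT14 and KRT5 with SCC1, and lies close to the other lines for EGFR.

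Vimentin and basal keratin were found in the same SCC25 cells. VIM was found in 78.9% and 54.1% of SCC25 cells, 1.65% and 2.38% of SCC1 cells and 17.4% and 35.7% of SCC6 cells. Without thinning the SCC25 shares of VIM were 86.8% and 69.3%. KRT14 was found in 99.7% and 99.9% of SCC25 cells, 97.9% and 98.5% of SCC1 cells and 1.06% and 0.739% of SCC6 cells. Cells with both made up 78.7% (exact 95% interval 76.9 to 80.4%) and 54.1% (52.1 to 56.1%) of the SCC25 samples. They were 1.65% and 2.32% in SCC1 and 0.415% and 0.328% in SCC6. Of SCC25 cells with VIM, 99.7% and 100% also had KRT14, as nearly every SCC25 cell did. The SCC25 shares were therefore what KRT14 in nearly all cells gives, and VIM cells were not a keratin-free group. These intervals cover counting error only.

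For EGFR, TFAP2A and AXL, also genes of interest of the study, the shares lay closer together than for VIM. EGFR was found in 70.1% and 73.6% of SCC25 cells, 63.2% and 64% of SCC1 cells and 67.1% and 65.5% of SCC6 cells. TFAP2A was found in 58.8% and 50.7% of SCC25 cells, 85.3% and 83.8% of SCC1 cells and 46.2% and 52.5% of SCC6 cells, and AXL in 59.6% and 33.8% of SCC25 cells, 72.3% and 59.8% of SCC1 cells and 59.9% and 62.6% of SCC6 cells. SCC1 lay apart for TFAP2A, the SCC25 samples lay a few percentage points above the rest for EGFR, and the SCC25 samples were the lowest for AXL, the first of them only just. No test was run on these shares, and the smallest two-sided p that an exact permutation test of 2 samples against 4 can give is 0.133. SFRP1 was found in 84.1% and 69.8% of SCC25 cells, 0% and 0% of SCC1 cells and 17.3% and 22.6% of SCC6 cells.

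Cetuximab samples gave the difference between lines a second time, in samples that the calls above did not use. By the same rule 1674 genes (9.72%) were higher and 1087 (6.31%) lower in cetuximab-treated SCC25 than in both other treated lines. Of these, 1344 were among the 1981 higher PBS calls (67.8% of the PBS list and 80.3% of the cetuximab list), and 714 among the 1018 lower calls (70.1% and 65.7%). No gene was called in opposite directions. All 20 leading higher genes were called again, and 15 of 20 leading lower genes, the exceptions being CXCL8, AREG, AKAP12, SERPINB1 and IL1B. AREG was at 45.7 and 30.6 CPM in cetuximab-treated SCC25 and 7.88 and 25.6 in SCC6. IL1B was at 66.8 and 17.3 CPM in SCC25 and 10.1 and 15.4 in SCC6. For both, SCC25 lay above SCC6 there and its fold change against SCC1 stayed negative. AKAP12 and SERPINB1 kept negative fold changes against both lines, and CXCL8 against SCC1 only. GPX3 was at 98.5 and 98.7 CPM in SCC25, 0 and 0.0118 in SCC1 and 0 and 0.0115 in SCC6 under cetuximab. FN1 was at 120.2 and 23.8 CPM in SCC25, 1108 and 598 in SCC1 and 3602 and 2767 in SCC6. The lines stood in the same arrangement as in the PBS samples for both genes.

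VIM and KRT14 were called in PBS samples and not under cetuximab. VIM was at 543 and 496 CPM in SCC25, 0.649 and 1.14 in SCC1 and 875 and 835 in SCC6 under cetuximab, where SCC6 exceeded SCC25. KRT14 was at 2183 and 3457 CPM in SCC25, 2363 and 2163 in SCC1 and 2.63 and 1.55 in SCC6, where a SCC25 sample fell between those of SCC1. The difference between the treatments was itself tested in an edgeR fit of all 12 samples, which called 0 genes at an adjusted p under 0.05 and had 689 genes at an unadjusted p under 0.05; no other tool was run on it. In the chromosome 11 stretches, 25 of 27 genes between 70 and 74 Mb were called higher under cetuximab and 24 of 50 between 74 and 100 Mb lower, beside 8.29% and 5.88% of the 8408 mapped genes. The chromosome 21 interval held 1 UMI in cetuximab-treated SCC25.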

How the data were processed

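HNSCC lines SCC1, SCC6 and SCC25 were profiled after 5 days of PBS or cetuximab with 2 samples per line and treatment. The authors sequenced 10x Chromium 3′ libraries, aligned them with Cell Ranger to GRCh38 (per the submitters' processing notes) and, per their methods, filtered cells in Monocle; versions of Cell Ranger and the annotation are not given in the sources used here. The deposited tables hold raw UMI counts per gene and cell. Each sample held 57057402 to 112170073 UMIs, and all per-sample columns were used (0 unused).

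UMIs were summed per gene and sample, since cells are not replicates. Symbols on more than 1 line (24) were summed. Genes were filtered with filterByExpr, scaled by TMM and tested with edgeR 4.0.16 (R 4.3.3, limma 3.58.1), quasi-likelihood F-test, 1 mean per group and 3 residual degrees of freedom, with Benjamini-Hochberg adjustment over 17229 genes. CPM divide by totals multiplied by TMM factors (0.867 to 1.2 in PBS samples; cetuximab samples were scaled among themselves); ± after a log2 fold change is its standard error. UMIs at the 3′ end are not scaled by length, so levels were compared within a gene only. Named genes were, by rule, the 20 in each direction with the largest smaller fold change among called genes of at least 2-fold (log2 of 1) and 50 CPM, up to 2 called members per list and direction with 10 CPM, and TFAP2A, VIM, EGFR and AXL; others are named as chosen after their values were seen, and a few genes are not reported here. The members and the 40 gene lists were chosen with earlier results of these data known. The labels do not say that replicates came from separate cultures, so p-values measure the spread between these samples, which may be technical.

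Shares of positive cells used cells thinned to 15000 UMIs, with exact Clopper-Pearson intervals that cover counting error only. No doublet caller was run; leaving out the 5% of cells with most UMIs was an alternative. Folds against 0 UMIs used a floor of 3 UMIs over the group. Gene positions and promoters came from RefSeq GRCh38.p14, which matched 83 of 120 named genes to a promoter. Scripts were tested on simulated counts. Alternatives were DESeq2 1.42.0 size factors and its test, no filter, all 12 samples, a replicate block, each sample left out, other cell filters, thinning and other compositions.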

Additional observations from a re-analysis of the deposited data

How the results depend on the processing

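The calls against both lines, 1981 higher and 1018 lower, were 1891 to 2368 higher and 965 to 1325 lower under other scaling, filters, depth, composition, cell filters, DESeq2's test or the fit of all 12 samples. With a replicate block the lower count was 1882, and against SCC1 and SCC6 singly it was 4005 and 4291, beside 2477 and 2807. The higher count under the block was 2595, and 14 of 50 proliferation genes were then lower, beside 3. Over genes, the difference of replicate 1 from replicate 2 in a line correlated at 0.28 to 0.45 with that in another line. There are 2 replicate numbers only and the labels tie them to no shared batch, so the main test left them out. The source of the correlation was not tested. A single contrast with the mean of SCC1 and SCC6, which asks less of each gene, gave 4024 higher and 2234 lower.

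Leaving out 1 sample leaves a group of 1, assumed to vary like the other groups, with 2 residual degrees of freedom. It gave 1351 to 1678 higher calls and 519 to 857 lower, with 519 and 532 lower without SCC1 replicates 2 and 1. Against SCC1, counts were 2415 to 3903 higher and 1188 to 2501 lower. Against SCC6 they were 2494 to 3152 higher and 1815 to 2323 lower. The cause of these drops beyond the smaller number of samples was not tested. No named gene changed sign. Of 117 named genes called, 76 had the same call under all 15 alternatives, and 41 lost it under at least 1, most often without SCC1 replicate 1 (23). Shares of positive cells of all 20 leading genes of each direction kept both SCC25 samples beyond the other 4 without thinning, at 2 UMIs and without the cells with most UMIs.

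With 2 samples per line the spread is known poorly. Genes under 1 CPM rest on few UMIs, and where such a gene has no call a difference was not detectable at this depth.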

Other observations

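Smaller gene groups that stand in no comparison above were mixed. S100 genes stood near the shares over all genes, at 12.5% higher and 6.25% lower beside 11.5% and 5.91%. Of 20 tumour stem-cell markers, 7 were called higher (4 without SCC25 replicate 2) and 1 lower, ALCAM. CD9, a tetraspanin, was at 469 and 879 CPM in SCC25, 166 and 202 in SCC1 and 269 and 331 in SCC6, and its call was lost without SCC25 replicate 2 (adjusted p = 0.12), without SCC6 replicate 1 (adjusted p = 0.13) and without SCC6 replicate 2 (adjusted p = 0.065). Of 31 integrated stress response genes, 2 were called higher and 3 lower (XBP1, SDF2L1 and STC2). SDF2L1, a chaperone cofactor of the endoplasmic reticulum, was at 77 and 55.1 CPM in SCC25, 347 and 285 in SCC1 and 261 and 109 in SCC6, and its call was lost without SCC25 replicate 2 (adjusted p = 0.11) and without SCC6 replicate 1 (adjusted p = 0.14). Both SDF2L1 samples of SCC25 lay below all others. Of 26 p53 targets, BTG2 was called higher at 13.2 and 28.2 CPM in SCC25, 3.59 and 3.12 in SCC1 and 4.17 and 4.37 in SCC6, and 2 were called lower. Of 16 S100 genes, 2 were called higher and 1 lower (S100A7), and S100A4 was at 61 and 107 CPM in SCC25, 24.8 and 29.8 in SCC1 and 24.1 and 17.4 in SCC6, with its call lost without SCC1 replicate 1 (adjusted p = 0.053). Metallothioneins gave 2 higher calls of 7, and SOX genes 3 higher and 1 lower of 9. Of 39 cancer-testis genes, 20 had 0 UMIs in the PBS samples, and the 4 tested gave no call. HORMAD1 was not in this list.

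On chromosome 1, 14 of 26 genes between 90 and 100 Mb were called higher, with medians of 1.02 against SCC1 and 1.33 against SCC6, and 14 of 33 between 50 and 60 Mb were called lower, with medians of -1.08 and -0.79. Under cetuximab these counts were 18 and 10. MTAP, which lies beside the CDKN2A tumour suppressor locus on chromosome 9, was at 9.14 and 8.5 CPM in SCC25, 18.3 and 20 in SCC1 and 44.6 and 43.2 in SCC6. It was measured in every sample and lowest in SCC25, and its call was lost without SCC1 replicate 2 (adjusted p = 0.063). After HORMAD1, the fullest genes with 0 UMIs in SCC1 and SCC6 were LINC00839, at 8.75 and 8.33 CPM in SCC25, and GSPT2, a translation termination factor, at 7.43 and 8.38 CPM.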
